A study of Mus musculus with 6 samples.

Results

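The T cell receptor (TCR) complex, its coreceptors and its proximal kinases were represented by 10 genes, chosen by symbol: the CD3 chains Cd3d, Cd3e, Cd3g and Cd247, the coreceptor genes Cd8a, Cd8b1 and Cd4, the kinase genes Lck and Zap70, and the adaptor gene Lat. All 10 were among the 24589 gene symbols of the table and among the 10866 genes tested. The libraries were bulk RNA-seq of primary CD8+ T cells, purified with magnetic beads from spleen and lymph nodes of wild-type C57BL/6 mice, which the methods describe for the whole study as young adults of both sexes. Both groups were first activated by antibodies against CD3 and CD28. For the following 24 h they received the solvent DMSO (3 libraries) or 20 µM trans-vaccenic acid (TVA), a long-chain trans fatty acid (3 libraries). All 6 libraries thus came from cells whose receptor complex had been engaged by antibody, and no unstimulated cells are compared here. The sources do not say whether the replicates came from separate mice or cultures, so the p-values measure only the spread between these libraries, which may be technical. The comparison asked whether TVA changed the transcripts of the antigen receptor machinery.

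The antigen-binding TCR chains cannot signal by themselves. They are assembled with the CD3 chains, whose cytoplasmic tails carry immunoreceptor tyrosine-based activation motifs (ITAMs), each a pair of tyrosines spaced within narrow limits. When the receptor meets its antigen, a CD8 or CD4 coreceptor binds the same MHC molecule and brings the kinase LCK, which phosphorylates the ITAM tyrosines. The kinase ZAP70 docks on them, is activated and phosphorylates the adaptor LAT, on which the enzymes of the calcium, Ras and other branches assemble. In mature cytotoxic T cells the coreceptor is mostly a CD8α and CD8β pair, and Cd4 is silenced.

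The coding sequence of each ITAM is shown because the number of motifs is what sets the chains apart as signalling subunits. A search of the coding sequences in GENCODE vM21 (build GRCm38) for a tyrosine codon, 2 codons of any kind and a leucine or isoleucine codon, repeated after 6 to 8 codons, found 6 motifs. Cd3d, Cd3e and Cd3g held 1 each and Cd247 held 3. The 2 tyrosine codons are in capitals, and each stretch spans 2 coding exons.
Cd3d: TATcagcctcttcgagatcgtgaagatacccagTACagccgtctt
Cd3e: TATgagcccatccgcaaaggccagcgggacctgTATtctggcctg
Cd3g: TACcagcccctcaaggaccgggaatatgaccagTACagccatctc
Cd247 ITAM 1: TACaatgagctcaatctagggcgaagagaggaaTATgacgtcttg
Cd247 ITAM 2: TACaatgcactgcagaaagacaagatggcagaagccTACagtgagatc
Cd247 ITAM 3: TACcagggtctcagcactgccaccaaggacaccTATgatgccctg
The Cd3d stretch covers codons 149 to 163 of 173, that of Cd3e codons 170 to 184 of 189, and that of Cd3g codons 160 to 174 of 182. In Cd247 they cover codons 72 to 86, 111 to 126 and 142 to 156 of 164. ITAM 2 of Cd247 is 48 bases long and the others are 45.

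The genes Cd3g, Cd3d and Cd3e lie side by side on chromosome 9 in GRCm38, at chr9:44969572-44980431 on the minus strand, chr9:44981786-44987339 on the plus strand and chr9:44998740-45009627 on the minus strand. Cd3g and Cd3d are head to head, with start sites 1355 bp apart, and the ends of Cd3d and Cd3e lie 11401 bp apart. Cd247 lies elsewhere, at chr1:165788681-165877277 on the plus strand. Cd8b1 (chr6:71322788-71337494) and Cd8a (chr6:71373427-71379173) share the plus strand of chromosome 6 with 35933 bp between them, and Cd4 is on the minus strand of the same chromosome at chr6:124864692-124888221. Lck is at chr4:129548344-129573641 on the minus strand, Zap70 at chr1:36761798-36782818 on the plus strand and Lat at chr7:126363824-126369570 on the minus strand. Annotated exons on the opposite strand overlap those of Cd3e (the antisense gene Gm48719) and Cd247 (Pou2f1), and since strand use in the counting is not given, reads there cannot be assigned to a strand.

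The promoters of the chromosome 9 cluster are shown because its genes had the highest fold changes of the set and share a locus. Each RefSeq window (GRCm38.p6) runs from 250 bases before to 50 bases after a start site, with capitals on the motifs found on either strand.
Cd3g: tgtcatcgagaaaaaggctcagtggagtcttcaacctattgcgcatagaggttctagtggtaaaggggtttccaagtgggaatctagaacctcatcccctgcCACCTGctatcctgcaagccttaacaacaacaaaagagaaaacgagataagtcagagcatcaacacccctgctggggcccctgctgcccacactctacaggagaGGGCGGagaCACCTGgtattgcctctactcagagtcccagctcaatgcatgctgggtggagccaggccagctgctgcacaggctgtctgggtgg
Cd3d: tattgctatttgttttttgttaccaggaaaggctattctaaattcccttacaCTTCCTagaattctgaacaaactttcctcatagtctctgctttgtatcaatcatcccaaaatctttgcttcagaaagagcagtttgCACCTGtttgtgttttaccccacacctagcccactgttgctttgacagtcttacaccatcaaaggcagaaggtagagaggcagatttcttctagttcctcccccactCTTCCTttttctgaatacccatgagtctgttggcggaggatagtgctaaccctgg
Cd3e: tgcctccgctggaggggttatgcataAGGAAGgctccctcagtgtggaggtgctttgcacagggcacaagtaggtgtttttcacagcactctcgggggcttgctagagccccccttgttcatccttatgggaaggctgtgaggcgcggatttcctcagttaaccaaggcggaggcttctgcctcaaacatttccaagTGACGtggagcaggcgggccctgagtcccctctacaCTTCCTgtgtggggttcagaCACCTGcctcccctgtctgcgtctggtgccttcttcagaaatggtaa
The windows are chr9:44980382-44980681 on the minus strand for Cd3g, chr9:44981536-44981835 on the plus strand for Cd3d and chr9:45009562-45009861 on the minus strand for Cd3e. RefSeq windows were available for 8 of the 10 genes, 11 windows in all. Both strands were searched for 6 motifs: the cAMP response element core TGACG, the RUNX site TGTGGT, the ETS core AGGAAG, the E-box CAGGTG, the GC box GGGCGG and the TATA box TATAAA. No motif contains another. The E-box occurred in 8 of the 11 windows (20.3% of all 32544 promoter windows), including all 3 shown, where it reads CACCTG. The ETS core occurred in 8 windows (35.1% of all), including those of Cd3d and Cd3e. The core TGACG was in the Cd3e window and in 1 Zap70 window (20.9% of all), the RUNX site in 3 windows (16.7%), the GC box in the Cd3g window and 1 Lck window (35.9%), and the TATA box in 0 windows (13.6%). These matches are descriptions of the letters only. GC content was 54.0% in the Cd3g window, 42.3% in the Cd3d window and 56.7% in the Cd3e window, with a median of 53% over all promoter windows.

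Levels are given in TPM, a unit that corrects for transcript length and sums to 1 shared total per library, so that levels of different genes can be compared. Sequencing depth cannot be read from TPM and is unknown. Changes were fitted with limma on log2(TPM + 1), with Benjamini-Hochberg adjustment over the 10866 genes tested and a threshold of 0.05. Of the 10 genes, 1 passed this threshold, Cd3g, which was higher with TVA, against 8.51% of all genes tested (5.28% higher and 3.23% lower). A share of 1 in 10 is near that background. The 2 groups were fully separated for 6 of the 10 genes, with Cd3d, Cd3e, Cd3g and Cd8a higher and Cd4 and Zap70 lower with TVA, against 38.6% of all genes (27.3% higher and 11.2% lower). At an unadjusted p under 0.05 there were 6 of 10, against 31.8% of all genes. The median log2 change was 0.05 over the 10 genes, 0.22 over the 4 CD3 chains and 0.04 over all genes tested.

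**Figure D1:**
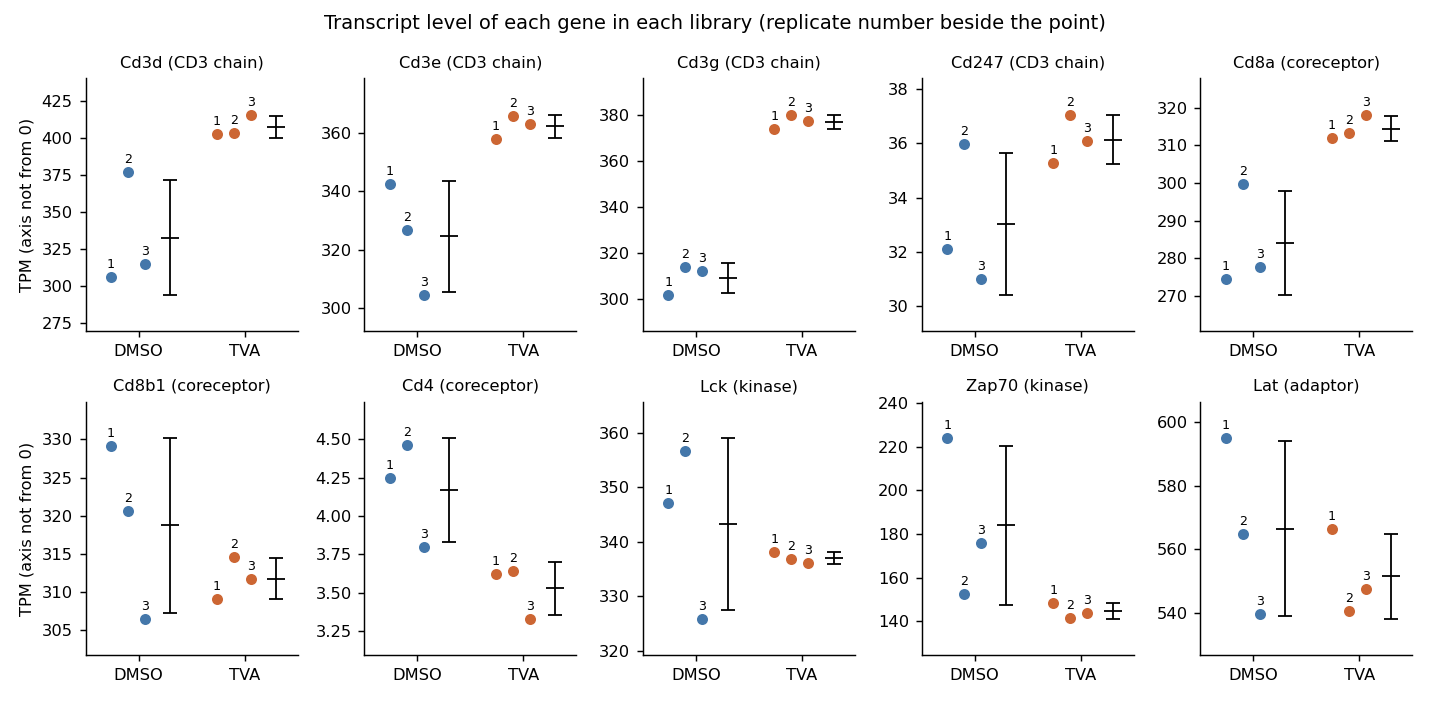
TPM of each gene in each of the 3 DMSO and 3 TVA libraries, with the replicate number above each point and the mean and SD drawn beside the points (vertical axes do not start at 0). The groups are separated for Cd3d, Cd3e, Cd3g, Cd8a, Cd4 and Zap70 and overlap for Cd247, Cd8b1, Lck and Lat.

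The libraries themselves differed in ways that touch these values. DMSO replicate 2 correlated with each TVA library at 0.996 (Pearson, log2 TPM + 1, across genes, which are not independent replicates) and with DMSO replicates 1 and 3 at 0.993 and 0.995. For 5 of the 10 genes (Cd3d, Cd247, Cd8a, Lck and Zap70) its level was nearer to the TVA mean than to the mean of the other DMSO libraries. Lck met this only narrowly, since its level there, 356.67 TPM, was the highest of all libraries. The count was not made over all genes tested. Levels also moved with the GC content of the transcripts, with a Spearman correlation of -0.40 between log2 change and GC content over all genes tested and -0.78 over the 10 genes, a description over genes that share the same 6 libraries. The TVA libraries were tighter than the DMSO libraries for 10 of 10 genes by SD, and for 73.3% of all genes tested. The part of these differences in the changes described next was not tested beyond the values given.

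Of the CD3 chains, Cd3d, Cd3e and Cd3g were among the abundant transcripts of the cells, and Cd3g, which encodes CD3γ, rose. It measured 301.79, 314.06 and 312.11 TPM in DMSO replicates 1, 2 and 3, and 373.70, 379.96 and 377.45 TPM in TVA replicates 1, 2 and 3. The lowest TVA library thus lay well above the highest DMSO library, and DMSO replicate 2 stood with its own group. The mean went from 309 ± 6.59 to 377 ± 3.15 TPM (SD, n = 3 libraries each), a log2 change of 0.28 (SE 0.034, 95% interval 0.21 to 0.36, limma adjusted p = 0.0063). The transcript GC content of Cd3g, 47.1%, was under the median of 50.4% over all genes tested, and the change was 0.24 with the GC correction, still past the threshold. It kept its direction under all 14 alternatives (0.24 to 0.30) and missed the threshold in 2 of them, with an adjusted p of 0.056 without TVA replicate 2 and 0.052 without TVA replicate 3. In bulk libraries a different share of T cells and a different amount of RNA per cell cannot be told apart.

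Cd3d, which encodes CD3δ, measured 305.93, 377.23 and 315.17 TPM in the DMSO libraries and 403.08, 403.67 and 416.08 TPM in the TVA libraries. All TVA libraries were higher, but DMSO replicate 2 lay much closer to them than DMSO replicates 1 and 3 did. The means were 333 ± 38.8 and 408 ± 7.34 TPM, a log2 change of 0.30 (SE 0.076, 95% interval 0.12 to 0.47) that missed the threshold with a limma adjusted p of 0.052. The call depended on the library and on the GC correction: the adjusted p was 0.00068 without DMSO replicate 2 (log2 change 0.39), where 20.6% of all genes passed. It was 0.042 with the GC correction (0.28), where 9.49% of all genes passed. Over the 14 alternatives the limma adjusted p ranged from 0.00068 to 0.18, the highest without TVA replicate 3.

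Cd3e encodes CD3ε, the chain that antibodies to CD3 commonly bind. It measured 342.54, 326.62 and 304.29 TPM in the DMSO libraries and 357.90, 365.96 and 363.31 TPM in the TVA libraries. The groups did not overlap, and DMSO replicate 1 was the nearest to the TVA libraries. The means were 324 ± 19.2 and 362 ± 4.11 TPM, a log2 change of 0.16 (SE 0.048, 95% interval 0.05 to 0.27, limma adjusted p = 0.073). Without DMSO replicate 1 the adjusted p was 0.028 with a log2 change of 0.20, where 8.7% of all genes passed. Over the 14 alternatives the limma adjusted p ranged from 0.028 to 0.23, the highest without TVA replicate 2.

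Cd247, which encodes CD3ζ with its 3 ITAMs, was by far the least abundant CD3 transcript. It measured 32.10, 35.98 and 30.98 TPM in the DMSO libraries and 35.28, 37.07 and 36.09 TPM in the TVA libraries. DMSO replicate 2 lay among the TVA libraries, so the groups overlapped. The means were 33.0 ± 2.62 and 36.1 ± 0.896 TPM, and the log2 change of 0.13 (SE 0.059) had a 95% interval from -0.01 to 0.27 and a limma adjusted p of 0.18, or 0.028 without DMSO replicate 2 (log2 change 0.19). In that setting 20.6% of all genes passed, and over the 14 alternatives the limma adjusted p ranged from 0.028 to 0.40. Cd247 stood at 9.98% to 10.6% of the mean of the other CD3 chains with DMSO and at 9.33% to 9.67% with TVA.

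Summed over the 4 chains, CD3 transcripts came to 982, 1054 and 963 TPM in the DMSO libraries and 1170, 1187 and 1193 TPM in the TVA libraries. The TVA sums were all above the DMSO sums, and DMSO replicate 2 was again the highest of its group.

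**Figure D2:**
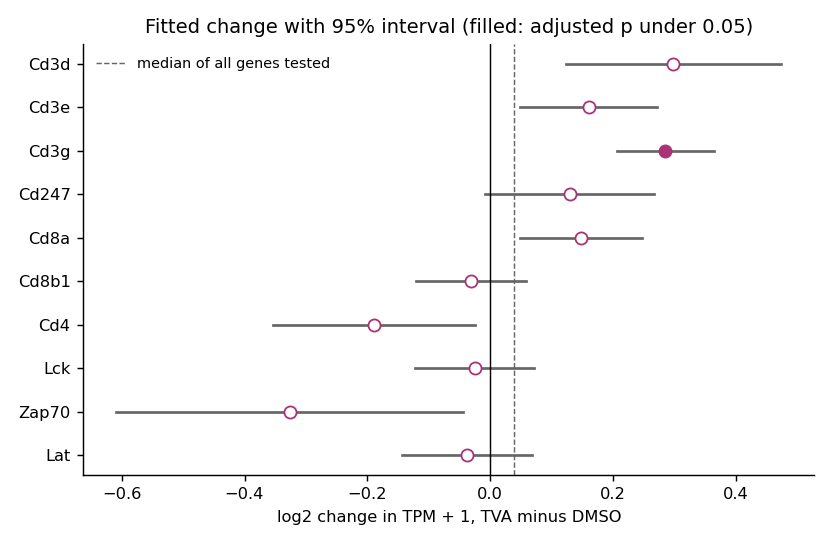
Fitted log2 change in TPM + 1 (TVA minus DMSO, horizontal axis) of each gene, with its 95% interval. Filled points have an adjusted p under 0.05. The dashed line marks the median of all genes tested, 0.04. Cd3g at 0.28 is the only filled point, and the widest interval is that of Zap70, from -0.61 to -0.04.

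Among the coreceptor genes, no change passed the threshold. Cd8a, which encodes CD8α, measured 274.48, 299.84 and 277.67 TPM in the DMSO libraries and 311.96, 313.30 and 318.21 TPM in the TVA libraries. All TVA libraries were higher, with DMSO replicate 2 nearest to them. The means were 284 ± 13.8 and 314 ± 3.29 TPM, a log2 change of 0.15 (SE 0.043, 95% interval 0.05 to 0.25, limma adjusted p = 0.068), with an adjusted p of 0.012 without DMSO replicate 2 (log2 change 0.19). In that setting 20.6% of all genes passed, and over the 14 alternatives the limma adjusted p ranged from 0.012 to 0.24.

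Cd8b1, which encodes CD8β, which improves CD8 as a coreceptor of the TCR, measured 329.12, 320.56 and 306.44 TPM in the DMSO libraries and 309.07, 314.51 and 311.62 TPM in the TVA libraries. The TVA libraries fell inside the range of the DMSO libraries. The means were 319 ± 11.5 and 312 ± 2.72 TPM, a log2 change of -0.03 (SE 0.038, 95% interval -0.12 to 0.06, limma adjusted p = 0.60).

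Cd4, the coreceptor gene of helper T cells, was detected at a low level. It measured 4.25, 4.46 and 3.80 TPM in the DMSO libraries and 3.62, 3.64 and 3.33 TPM in the TVA libraries. Every TVA library was below every DMSO library, with DMSO replicate 3 nearest to them. The means were 4.17 ± 0.337 and 3.53 ± 0.173 TPM, a log2 change of -0.19 (SE 0.071, 95% interval -0.35 to -0.02, limma adjusted p = 0.12). On the log2(TPM + 1) scale the change of a gene at this level is understated. Cd4 amounted to 1.37% to 1.55% of Cd8a with DMSO and to 1.05% to 1.16% with TVA.

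The markers of other cells bear on the labelled cell type and on Cd4. Genes of CD8 T cells summed to 5746 to 6292 TPM with DMSO and 6386 to 6487 TPM with TVA. Most of it was Gzmb (2978 to 3206 TPM over the 6 libraries) and Nkg7 (1095 to 1437 TPM). The list shares Cd8a, Cd8b1, Cd3d, Cd3e and Cd3g with the genes described above. Of its 10 tested markers, 3 rose (Cd3g, the transcription factor gene Eomes and the perforin gene Prf1, against 5.28% of all genes tested) and 0 fell. Runx3 was lower in every TVA library without passing the threshold (limma adjusted p = 0.11). Genes of CD4 T cells summed to 300 to 330 TPM with DMSO and 237 to 240 TPM with TVA, most of it Tnfrsf4 (198 to 280 TPM over the 6 libraries), an activation receptor that CD8 T cells can also express. Of the 6 tested, 3 fell (Tnfrsf4, Cd40lg and Izumo1r, against 3.23% of all genes tested) and 0 rose, while the defining genes Cd4, Zbtb7b and Foxp3 ranged up to 4.46, 6.83 and 0.89 TPM. The part of residual CD4 T cells in the Cd4 values was not tested. B cell genes summed to 10.9 to 15.2 TPM (Cd79a at most 1.07 and Cd79b at most 13.25 TPM), and NK cell genes to 43.6 to 50.8 TPM with DMSO and 49.7 to 52.4 TPM with TVA (Ncr1 at most 0.43, Klrb1c at most 0.42 and Klra8 at most 0.26 TPM; Tyrobp rose). Myeloid genes summed to 55.3 to 57.3 TPM with DMSO and 69.7 to 73.8 TPM with TVA, with 1 higher (Lyz2) and 0 lower (Csf1r was at most 1.28 and Itgam at most 3.01 TPM). Csf1r, Itgam, Adgre1, Cd14 and Fcgr3 were not called but were also higher in every TVA library, while Cd68, Itgax, S100a8, Clec9a and Siglech overlapped. Of all genes tested, 27.3% were higher in every TVA library. Red cell genes summed to 37.9 to 61.4 TPM with DMSO and 48.6 to 58.7 TPM with TVA, with 0 higher and 1 lower (Hbb-bt); of the defining genes, Hba-a1 ranged from 0.21 to 16.9, Hba-a2 from 16.3 to 49.3 and Hbb-bs from 0 to 15.1 TPM. Genes of gamma-delta T cells summed to 39.4 to 45.6 TPM, nearly all of it Il17a, and none of the receptor genes of these cells was analysed here. None of the markers in the table was listed at 0 in all 6 libraries.

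The proximal kinases differed from each other in their spread. Lck, which encodes the coreceptor-bound kinase that phosphorylates ITAMs, measured 347.20, 356.67 and 325.91 TPM in the DMSO libraries and 338.14, 336.87 and 336.08 TPM in the TVA libraries. The TVA libraries lay within the DMSO range. The means were 343 ± 15.8 and 337 ± 1.04 TPM, a log2 change of -0.03 (SE 0.042, 95% interval -0.12 to 0.07, limma adjusted p = 0.70).

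Zap70, which encodes the kinase that docks on phosphorylated ITAMs, measured 223.89, 152.38 and 175.68 TPM in the DMSO libraries and 148.56, 141.56 and 143.90 TPM in the TVA libraries. The groups did not overlap, but DMSO replicate 2 was close to the highest TVA library while DMSO replicate 1 stood far above the rest. The coefficient of variation was 19.8% with DMSO and 2.46% with TVA, the widest DMSO spread of the 10 genes. The means were 184 ± 36.5 and 145 ± 3.56 TPM, a log2 change of -0.33 (SE 0.12, 95% interval -0.61 to -0.04, limma adjusted p = 0.12). Zap70 transcripts had the highest GC content of the set, 58.8%, and DMSO replicate 1, its highest library, was also the library whose levels correlated most with GC content (Spearman 0.59 of the deviation with GC content over genes tested, against -0.41 to 0.0020 in the other libraries). The log2 change was -0.22 with the GC correction, -0.18 without DMSO replicate 1 and -0.45 without DMSO replicate 2, where the adjusted p was 0.015. In that last setting 20.6% of all genes passed, and over the 14 alternatives the limma adjusted p ranged from 0.015 to 0.29.

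Lat, which encodes the adaptor that ZAP70 phosphorylates, was the most abundant of the 10 transcripts. It measured 594.95, 564.91 and 539.73 TPM in the DMSO libraries and 566.35, 540.55 and 547.58 TPM in the TVA libraries. The groups overlapped almost fully. The means were 567 ± 27.6 and 551 ± 13.3 TPM, a log2 change of -0.04 (SE 0.046, 95% interval -0.14 to 0.07, limma adjusted p = 0.59).

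**Figure D3:**
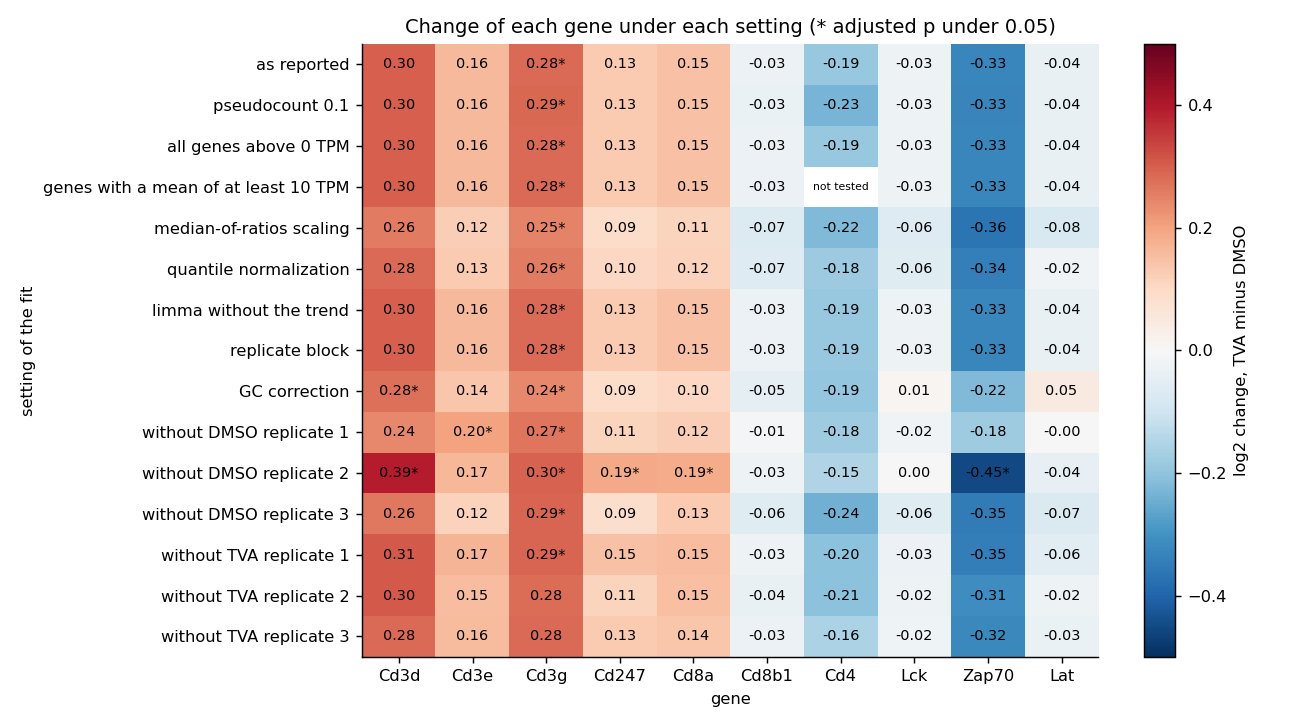
Log2 change (TVA minus DMSO) of each gene (columns) as reported and under each alternative setting of the fit (lines of the grid), colored by its size, with an asterisk at an adjusted p under 0.05. Cd3g carries the asterisk except without TVA replicate 2 or 3, and the setting without DMSO replicate 2 holds the most asterisks, 5.

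Leaving out DMSO replicate 2 changed the picture most. Without it, 5 of the 10 genes passed the threshold (Cd3d, Cd3g, Cd247 and Cd8a higher and Zap70 lower with TVA), against 20.6% of all genes tested. Without DMSO replicate 1 there were 2 (Cd3e and Cd3g), against 8.70% of all genes, and without TVA replicate 2 or TVA replicate 3 there were 0, where only 0.939% and 1.04% of all genes passed. Cd3g passed with all libraries and also without DMSO replicate 1, 2 or 3.

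Ratios of transcripts within a library do not depend on how the library was scaled, so 7 were compared with an exact two-sided permutation test. With 3 libraries against 3 this test cannot give a p below 0.10, and the values below are read for overlap only. The ratio of Cd8b1 to Cd8a was 1.20, 1.07 and 1.10 with DMSO and 0.991, 1.00 and 0.979 with TVA. It was thus lower in every TVA library, by 0.18 on the log2 scale (exact p = 0.10, adjusted over the 7 ratios 0.23). The difference was -0.21 to -0.13 with a pseudocount of 1 on both genes or a library left out. No GC correction was applied to the ratios. The ratio of Cd4 to Cd8a was also lower in every TVA library, by 0.39 on the log2 scale (exact p = 0.10, adjusted 0.23).

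Within the CD3 complex, the ratio of Cd3g to Cd3e was 0.881, 0.962 and 1.03 with DMSO and 1.04 in each TVA library. It was higher in every TVA library, with DMSO replicate 3 just below them (log2 difference 0.12, exact p = 0.10, adjusted 0.23), and the difference was 0.067 without DMSO replicate 1. The ratios of Cd3d and Cd247 to Cd3e overlapped between the groups, with log2 differences of 0.14 and -0.03 (exact p = 0.40 and 0.70). Single DMSO libraries moved both: the difference of Cd3d to Cd3e was 0.040 without DMSO replicate 1 and 0.23 without DMSO replicate 2, and that of Cd247 to Cd3e was -0.087 and 0.030. The ratio of Zap70 to Lck was 0.645, 0.427 and 0.539 with DMSO and 0.439, 0.420 and 0.428 with TVA, so that DMSO replicate 2 lay among the TVA libraries (log2 difference -0.30, exact p = 0.30, with -0.16 without DMSO replicate 1 and -0.46 without DMSO replicate 2). The ratio of Lat to Lck differed by -0.01 on the log2 scale (exact p = 0.80) and took either sign when a library was left out (-0.042 to 0.015).

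**Figure D4:**
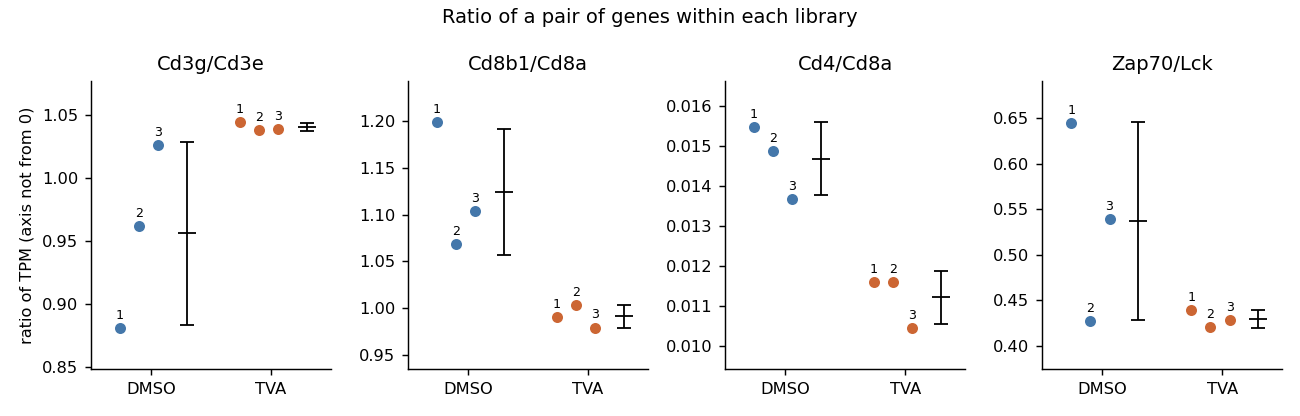
Ratio of the TPM of each of 4 pairs of genes in each library, with the replicate number above each point and the mean and SD beside the points (vertical axes do not start at 0). Cd3g/Cd3e is higher and Cd8b1/Cd8a and Cd4/Cd8a are lower in every TVA library than in every DMSO library, while Zap70/Lck overlaps.

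The levels of the 10 genes spanned a wide range. With DMSO the order of mean TPM was Lat, Lck, Cd3d, Cd3e, Cd8b1, Cd3g, Cd8a, Zap70, Cd247 and Cd4. Neighbours from Lck to Cd3g overlapped in their 3 libraries, while Lat stood above all, and Cd8a, Zap70, Cd247 and Cd4 each lay below the gene before it in every library. With TVA the order was Lat, Cd3d, Cd3g, Cd3e, Lck, Cd8a, Cd8b1, Zap70, Cd247 and Cd4, and the only overlapping neighbours were Cd8a and Cd8b1. By mean TPM over the 6 libraries, Lat was above 98.0% of the genes tested, Cd3d above 96.8%, Zap70 above 92.2%, Cd247 above 63.8% and Cd4 above 14.3%.

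The other genes of the pathway were taken as lists by role, which held 120 tested genes besides the 10. Of these, 4 were higher and 5 lower with TVA (7.5%, near the 8.51% of all genes), with a median log2 change of 0.01 against 0.04 over all genes tested. In the list of receptor chains, only Fcer1g, an ITAM-bearing subunit of Fc receptors, was tested (log2 change -0.05, not past the threshold). The antigen-binding chain genes Trac, Trbc1 and Trbc2 were not analysed here.

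None of the 12 kinases of the Src, Syk and Tec families, Lck and Zap70 among them, passed the threshold with limma. An unadjusted p under 0.05 was found for 6 of the 12, against 31.8% of all genes tested. Without DMSO replicate 2 there were 2 of the 12 past the threshold, against 20.6% of all genes tested. Fyn, the Src family partner of Lck in T cells, averaged 147 ± 9.16 TPM in DMSO and 144 ± 2.45 TPM in TVA libraries (log2 change -0.03 with a limma adjusted p of 0.67). Csk, which restrains Src family kinases, averaged 134 ± 9.23 and 132 ± 1.11 TPM (log2 change -0.02 with a limma adjusted p of 0.85).

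Among 25 tested adaptors and scaffolds of the LAT signalosome, 2 rose and 3 fell, with a median log2 change of -0.04. Grap, a GRB2-like adaptor, fell from 292 ± 15.2 to 236 ± 2.99 TPM (log2 change -0.31 with a limma adjusted p of 0.013). Themis, which encodes a T cell lineage protein that binds GRB2, fell from 33.3 ± 0.927 to 27.3 ± 1.22 TPM (log2 change -0.28 with a limma adjusted p of 0.017). Skap1, an adaptor that links the receptor to integrins, rose from 36.9 ± 0.672 to 42.8 ± 0.718 TPM (log2 change 0.21 with a limma adjusted p of 0.021). The other 2, Pag1 and Dok2, also belong to the list of brakes. Lcp2, which encodes the LAT partner SLP-76, averaged 347 ± 14.0 and 319 ± 7.03 TPM and was lower in every TVA library (log2 change -0.12 with a limma adjusted p of 0.105, or 0.045 with the GC correction).

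Of 31 enzymes and exchange factors downstream of LAT, 0 rose and 1 fell, with a median of 0.02. This was Rasgrp1, a diacylglycerol-dependent activator of Ras, which went from 44.6 ± 1.29 to 38.8 ± 0.905 TPM (log2 change -0.20 with a limma adjusted p of 0.032). Plcg1, the phospholipase recruited to LAT, averaged 32.0 ± 2.76 and 31.6 ± 0.174 TPM (log2 change -0.01 with a limma adjusted p of 0.89).

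Of 28 brakes on proximal signalling, 2 rose and 1 fell, with a median of 0.02. Pag1, the membrane anchor of CSK, rose from 10.4 ± 0.240 to 12.75 ± 0.591 TPM (log2 change 0.27 with a limma adjusted p of 0.024), and Rasa3, a Ras and Rap GTPase-activating protein, from 32.7 ± 1.64 to 38.8 ± 0.519 TPM (log2 change 0.24 with a limma adjusted p of 0.025). Dok2, an inhibitory adaptor, fell from 40.2 ± 2.71 to 32.5 ± 1.01 TPM (log2 change -0.30 with a limma adjusted p of 0.024). Ptpn22, a phosphatase that opposes LCK and ZAP70, averaged 160 ± 5.88 and 169 ± 2.70 TPM (log2 change 0.08 with a limma adjusted p of 0.22).

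Of 16 surface phosphatase and accessory receptor genes, 0 rose and 1 fell, with a median of 0.02. Slamf6, a receptor of the SLAM family, measured 26.05, 27.75 and 26.89 TPM in the DMSO libraries and 19.79, 20.56 and 20.07 TPM in the TVA libraries (log2 change -0.40 with an SE of 0.043 and a limma adjusted p of 0.0042). DMSO replicate 2 stood with its own group here, and Slamf6 passed the threshold under all 14 alternatives. Ptprc, which encodes the phosphatase CD45 that keeps LCK active, averaged 539 ± 18.4 and 579 ± 15.3 TPM (log2 change 0.10 with a limma adjusted p of 0.13). Of 17 regulators of Cd4 and Cd8 gene expression, 1 rose, the transcription factor gene Myb (20.0 ± 0.681 to 23.7 ± 0.628 TPM, log2 change 0.23, limma adjusted p = 0.025), and 0 fell, with a median of 0.0039. The calls of Grap, Themis, Skap1, Rasgrp1, Pag1, Rasa3, Dok2 and Myb were each lost when any 1 of the TVA libraries was left out, and those of Themis, Skap1, Rasgrp1, Pag1, Rasa3 and Myb also without DMSO replicate 3 (limma adjusted p from 0.057 to 0.069). Myb missed the threshold with the GC correction (0.060) and Pag1 with all genes above 0 TPM (0.051).

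**Figure D5:**
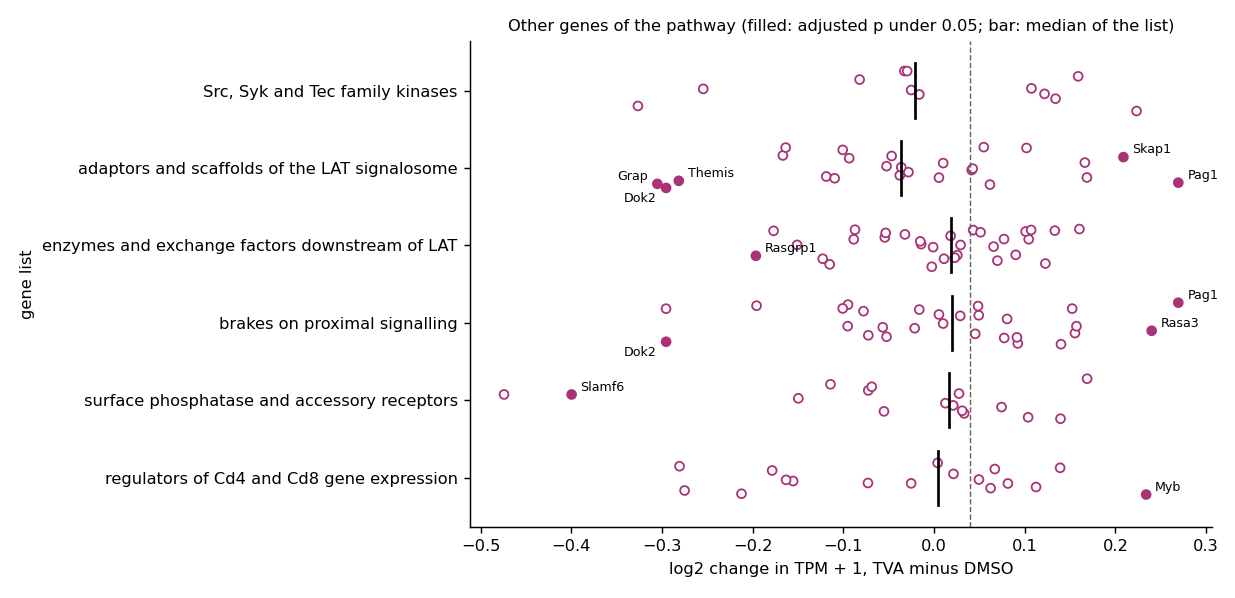
Log2 change in TPM + 1 (TVA minus DMSO, horizontal axis) of each tested gene in 6 of the lists of other pathway genes (the members are included where a list holds them), with filled, named points at an adjusted p under 0.05, a bar at the median of each list and a dashed line at the median of all genes tested, 0.04. The filled points lie on both sides of 0, and the kinase list has none.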

How the data were processed

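Per the labels, the SMARTER mRNA-Seq kit was used for the 3 DMSO and 3 TVA libraries. The authors deposited one table of TPM per gene symbol with 2 decimals, in which each library sums to nearly the same total. The submitters' processing notes name STAR, RSEM and the build mm10, without versions. Groups and replicate numbers came from the sample titles. Because TPM keeps no read counts, depth is unknown and no counting interval is given.

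Genes with at least 1 TPM in at least 3 libraries were tested on log2(TPM + 1), pseudocount 1, with limma 3.58.1 (variance trend, two-sided) in R 4.3.3, with Benjamini-Hochberg adjusted p across every tested gene (threshold 0.05). The fit was checked on simulated data with known changes of 1 log2 unit and independent noise. Smaller changes, such as those reported here, and noise shared between genes were not part of that check. Within-library ratios were compared by exact permutation in scipy 1.17.1, and figures were drawn with matplotlib 3.10.9.

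The genes and lists were chosen with earlier results of these data known, so no p is adjusted over a list and no test over a list was made. Besides the 10 genes, the text names up to 3 called genes per pathway list by smallest p, pathway genes taken whatever their values (Trac, Trbc1, Trbc2, Fyn, Lcp2, Plcg1, Csk, Ptpn22 and Ptprc), and the first 3 markers of each cell type; not all genes of this rule are reported here. Other called markers are named because their counts were 5 or fewer, and were picked after their values were seen. Further markers that were not called are named for their part of a sum or their direction, also after their values were seen.

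Alternatives were a pseudocount of 0.1, all genes above 0 TPM, only genes averaging 10 TPM or more, median-of-ratios scaling, quantile normalization, no variance trend, a replicate block, each library left out in turn, and a GC correction that removed, per library, a loess fit (span 0.5) of deviations from the gene mean against transcript GC content (GENCODE vM21, 97.4% of genes tested; others uncorrected).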

Additional observations from a re-analysis of the deposited data

How the results depend on the processing

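Over the 14 alternatives, the 10 genes gave 139 changes (Cd4 was not tested at a mean of at least 10 TPM), of which 128 kept direction and side of the threshold, 6 newly passed it, 2 lost it and 3 changed sign without passing it. The genes changed, 925 as reported (62.1% of them higher), were 494 (270 higher, 224 lower) with all genes above 0 TPM, 608 (430 and 178) at a mean of at least 10 TPM, 218 (93 and 125) with the replicate block and 102 to 2242 with a library left out (2242 without DMSO replicate 2, 294 without DMSO replicate 3, 125, 102 and 113 without TVA replicate 1, 2 or 3). The share of higher calls was 35.4% with median-of-ratios scaling and 46.1% with quantile normalization. Of the 10 genes, 1 was called as reported, 2 with the GC correction (Cd3d and Cd3g) and 0 to 5 with a library left out. Of the list genes, 9 were called as reported, 3 (0 higher, 3 lower) with the replicate block (Skap1, Rasgrp1, Dok2, Pag1, Rasa3 and Myb lost, limma adjusted p 0.054 to 0.068), 16 (4 higher, 12 lower) with the GC correction, and 1 to 21 with a library left out (21 without DMSO replicate 2, 3 without DMSO replicate 3 and 1 without each TVA library).

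Changes near 0 that turned sign were Lck (0.0096 with the GC correction and 0.0027 without DMSO replicate 2), Lat (0.047 with the GC correction), Fyn (0.017 without DMSO replicate 1), Plcg1 (0.031 without DMSO replicate 1 and 0.011 without DMSO replicate 2) and Csk (0.022 with the GC correction, 0.023 without DMSO replicate 1 and 0.00043 without DMSO replicate 2). For the other named genes, 178 of 224 values kept direction and side of the threshold. With a library left out, Lck ranged from -0.062 to 0.0027, Fyn from -0.064 to 0.017, Plcg1 from -0.085 to 0.031 and Csk from -0.073 to 0.023. The cause of these shifts was not tested. The replicate numbers are not stated to pair the libraries, and same-numbered libraries did not deviate together (correlations 0.16, 0.035 and -0.077), so the block was only an alternative; Cd3g was called under it. TPM without counts limits what can be said of the precision of low genes such as Cd4.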
